A study of Mus musculus with 14 samples.

Results

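Metalloproteinases are zinc-dependent proteases that cut extracellular matrix and membrane proteins, and 10 genes of this system were followed in mouse brain RNA. They are the 4 tissue inhibitors of metalloproteinases (Timp1, Timp2, Timp3 and Timp4), the matrix metalloproteinases Mmp2 and Mmp14, the disintegrin-and-metalloproteinase genes Adam8, Adam10 and Adam17, and the secreted thrombospondin-repeat protease Adamts1. The members were chosen by gene symbol, with earlier results of these data known. All 10 were found among the 13866 genes listed in the count table, and all 10 passed the filter on low counts that left 11852 genes for testing.

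The RNA came from brains of 19-day-old mice, measured by bulk MARSseq, which counts reads at the 3′ ends of transcripts. Wild-type (WT) mice were C57BL/6JOlaHsd, and MyTrMaSt null mice lack the innate immune adaptors and sensor Myd88, Trif (gene Ticam1), Mavs and Sting (gene Tmem173). Mice of both genotypes received daily intraperitoneal PBS or conduritol B-epoxide (CBE) at 100 mg/kg. CBE irreversibly inhibits acid beta-glucosidase, the lysosomal enzyme deficient in Gaucher disease, and at this dose serves as a chemical model of its neuronal form (nGD). It carries no patient mutation, and every cell type of the brain is exposed. The groups were WT + PBS, WT + CBE and MyTrMaSt + PBS with 3 libraries each, and MyTrMaSt + CBE with 5. The comparisons ask how CBE changes these genes in each genotype, and whether the response differs when the 4 innate immune pathways are missing.

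MMPs are secreted or membrane-anchored enzymes made as inactive precursors, and MMP14 at the cell surface activates pro-MMP2 in a complex that also contains TIMP2. ADAM10 and ADAM17 shed the outer domains of membrane proteins, among them amyloid precursor protein and tumour necrosis factor, while TIMPs bind the active site of these enzymes and block them. In brain, Timp1 is known as an inducible gene of reactive astrocytes, Timp2, Timp3 and Timp4 as inhibitors made without injury, and Adam8 as a gene of activated microglia and leukocytes.

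Total counts ran from 1290616 to 3547672 per library in WT and from 2129161 to 3704691 in MyTrMaSt, and a tested gene had a median of 29 to 107 counts per library. Replicate 1 of WT + PBS was the shallowest library and stood apart: its tested genes deviated from the other WT + PBS libraries by a median of 0.60 on the log2 scale, against 0.34 for each of those and 0.17 to 0.26 in the other groups. Xist, the X-inactivation RNA of female cells, had no count in WT + PBS, 32 to 46 counts in MyTrMaSt + PBS libraries, 47, 1 and 30 counts after CBE in WT, and 25, 39, 28, 0 and 18 counts after CBE in MyTrMaSt, so libraries with and without Xist were not balanced over the groups. Myd88 lay at 9.92 to 17.1 CPM (counts per 1000000 counts of a library, scaled by TMM factors) in PBS-injected WT mice against 3.1 to 4.48 in MyTrMaSt, and at 20.6 to 27.1 against 3.9 to 10.8 after CBE. Ticam1 and Mavs overlapped between the genotypes under each treatment, and Tmem173 was higher in the PBS-injected MyTrMaSt libraries (5 to 7.02 CPM against 0.9 to 2.48 in WT). A 3′ read outside the deleted part of a gene does not test a deletion, and the deleted parts were not examined.

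Promoter sequence is shown for the members with the largest responses to CBE, to let the rise be read beside the bases in front of each gene. The windows below are the 150 bases before the RefSeq start (GRCm38.p6), written 5′ to 3′ on the strand of the gene: Timp1 at chrX:20870016-20870165 on the plus strand, Mmp14 at chr14:54431448-54431597 on the plus strand and Adam8 at chr7:139992563-139992712 on the minus strand. Capitals mark a GC box (GGGCGG or its reverse complement CCGCCC, bound by Sp1-type factors) and a CCAAT box (CCAAT or its reverse complement ATTGG).
Timp1: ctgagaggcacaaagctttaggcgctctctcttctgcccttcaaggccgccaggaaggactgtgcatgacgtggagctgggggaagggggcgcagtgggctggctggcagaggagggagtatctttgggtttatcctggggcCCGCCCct
Mmp14: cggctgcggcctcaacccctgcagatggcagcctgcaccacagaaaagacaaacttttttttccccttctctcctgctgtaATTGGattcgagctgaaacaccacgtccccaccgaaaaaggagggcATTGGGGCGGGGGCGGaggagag
Adam8: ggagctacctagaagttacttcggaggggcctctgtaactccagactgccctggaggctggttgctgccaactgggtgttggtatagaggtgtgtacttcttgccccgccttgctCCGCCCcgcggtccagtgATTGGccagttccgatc

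RefSeq windows of 300 bases, from 250 before to 50 after the start, were matched for 9 of the 10 members and Mmp2 had no entry. On both strands, the GC box was present in 8 of these 9 windows and in 35.7% of 32851 mouse promoter windows of the same length, and the CCAAT box in 5 of 9 and 37.4%. In Mmp14 a CCAAT box and the first of its GC boxes share a base. The letters TATAAA occurred among the members in Adamts1 alone, 32 to 27 bases before the start, and in 13.6% of all windows. No member window held the AP-1 letters TGANTCA, the STAT letters TTCNNNGAA, the interferon-stimulated response element or the NF-kB motif, which were present in 7.81%, 8.3%, 3.44% and 8.46% of all windows. These are matches of letters and do not show binding.

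By the GENCODE annotation of GRCm38 (mm10), 3 of the 4 TIMP genes lie inside a synapsin gene on the opposite strand. Timp1 (ENSMUSG00000001131, chrX:20870166-20874735) lies in an intron region of Syn1 and shares no exon base with it. Timp4 (ENSMUSG00000030317, chr6:115241892-115252205) lies in Syn2 and shares 90 exon bases, and Timp3 (ENSMUSG00000020044, chr10:86300372-86349506) lies in Syn3 and shares 1733. Adam17 (chr12:21323509-21373632) shares 311 exon bases with Iah1 and Adam8 (chr7:139978932-139992562) shares 46 with Gm16201, each on the opposite strand. The other members share none: Timp2 (chr11:118301069-118355740), Mmp2 (chr8:92827291-92853420), Mmp14 (chr14:54431612-54445364), Adam10 (chr9:70678997-70780229) and Adamts1 (chr16:85793827-85803113). The strand setting of the counting is not given in the sources used here, so reads in shared bases cannot be assigned to one gene with certainty.

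In WT brain, CBE raised 5 of the 10 members and lowered none at an adjusted p below 0.05 (edgeR quasi-likelihood test, Benjamini-Hochberg over all 11852 genes). Of all tested genes 6.7% rose and 3.89% fell. The inhibitor Timp1 rose most, followed by Adam8, Mmp14, Adam17 and Timp2. In MyTrMaSt null brain, 2 members rose, Timp1 and Adam8, and none fell, where 5.32% of all tested genes rose and 2.44% fell. The median log2 fold change of the 10 members was 0.57 in WT and 0.32 in MyTrMaSt, against -0.02 and 0.01 over all tested genes. Since the members were chosen with earlier results of these data known, these counts and medians describe them and do not test them as a set. All libraries of the CBE group lay above all of the PBS group for 7 members in WT, where 15.1% of tested genes did so, and for 5 members in MyTrMaSt, where 11.8% did.

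**Figure D1:**
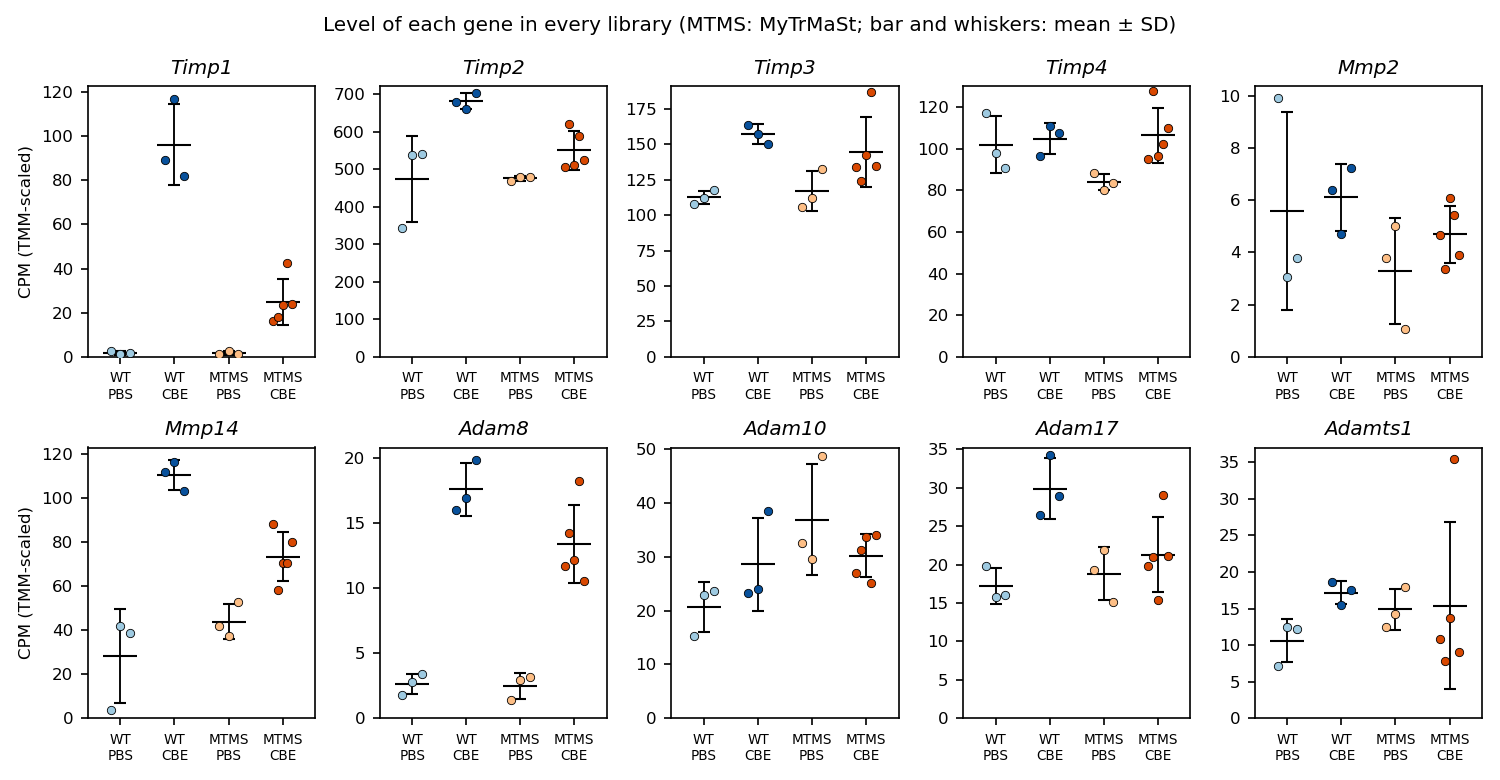
Level of each member in every library, in TMM-scaled CPM on a linear axis from 0 that differs between panels; points are libraries, the horizontal bar and whiskers are the mean and SD (n = 3, 3, 3 and 5), and MTMS stands for MyTrMaSt. Timp1 and Adam8 are between 1.06 and 3.37 CPM in both PBS groups and higher in every CBE library, and 1 WT + PBS library is low for Mmp14 at 3.61 CPM.

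Timp1, a secreted inhibitor of most MMPs and of ADAM10, had 3, 4 and 4 counts in the WT + PBS libraries, or 2.71, 1.11 and 1.69 CPM. With CBE the WT libraries reached 89.3, 117 and 81.9 CPM, from 307, 249 and 136 counts. MyTrMaSt + PBS libraries had 1.38, 2.64 and 1.06 CPM, and MyTrMaSt + CBE libraries 16.4, 18, 23.5, 42.3 and 23.9 CPM. The 4 groups thus formed 3 tiers without overlap: both PBS groups at the bottom, MyTrMaSt + CBE in the middle and WT + CBE at the top.

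The rise of Timp1 was 59.3-fold in WT (log2 fold change 5.89 ± 0.43, SE, adjusted p = 2.69e-08 by edgeR) and 13.5-fold in MyTrMaSt (3.76 ± 0.39, adjusted p = 6.48e-06 by edgeR). The base of both folds is small: pooled over libraries, Timp1 had 11 counts in WT + PBS (1.55 CPM, exact Poisson 95% interval 0.774 to 2.77, covering counting error only) and 17 in MyTrMaSt + PBS (1.79 CPM, 1.04 to 2.86). After CBE, the level in MyTrMaSt was 3.91-fold lower than in WT (log2 difference -1.97 ± 0.24, adjusted p = 3.87e-05 by edgeR), and Timp1 was the one member that passed between the CBE groups, where 0.194% of tested genes were higher and 2.35% lower in MyTrMaSt. Among the PBS groups, no member differed at this threshold (0.0337% of tested genes higher and 0.152% lower in MyTrMaSt), while 1 member, Adam10, had an unadjusted p below 0.05, as did 16.8% of all tested genes, and DESeq2 called none.

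The difference between the 2 responses of Timp1 was -2.13 on the log2 scale (SE 0.73, 95% interval -3.66 to -0.61), with an unadjusted p of 0.00894 and an adjusted p of 0.263 by edgeR's interaction test. No member passed that test, with 3 at an unadjusted p below 0.05, a level that 12.5% of all tested genes reached, and none by DESeq2. Of all tested genes 0.0759% had a larger and 0.413% a smaller response in MyTrMaSt. Since Timp1 is X-linked and Xist differed between the groups, the fit was repeated with the Xist level as a covariate: the rise was then 6.54 in WT and 3.52 in MyTrMaSt on the log2 scale, and the difference between the responses -3.02 (adjusted p = 0.0592 by edgeR). With replicate 1 of WT + PBS also left out the difference was -3.22 and passed (adjusted p = 0.0155 by edgeR), while leaving out that library alone gave -2.37 (adjusted p = 0.219). Here and below the covariate has a limit: no WT + PBS library had Xist and every MyTrMaSt + PBS library did. Within groups it varied mainly through replicate 2 of WT + CBE and replicate 4 of MyTrMaSt + CBE, which were low in Xist. Both were highest of their groups for Timp1. Values with the covariate thus extrapolate in the PBS groups, where Xist level and group cannot be told apart.

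Timp2, the partner of MMP14 in pro-MMP2 activation, measured 343, 539 and 542 CPM in WT mice given PBS, and those given CBE had 680, 662 and 704. Its rise in WT was 1.43-fold (log2 0.52 ± 0.16, adjusted p = 0.0430 by edgeR). The lowest of these values was that of the library that stood apart; without it the log2 change was 0.35 (adjusted p = 0.0492 by edgeR). The call was lost in 14 of 24 alternative analyses, among them those that left out any 1 of the WT + CBE libraries (adjusted p up to 0.115). In MyTrMaSt the levels were 468, 480 and 478 CPM with PBS and 507, 620, 511, 588 and 525 with CBE, which do not overlap, yet the log2 change of 0.21 ± 0.14 did not pass (95% interval -0.09 to 0.51, adjusted p = 0.391 by edgeR).

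Timp3, the matrix-bound TIMP and the main physiological inhibitor of ADAM17, was counted at 108, 112 and 118 CPM in PBS-injected WT mice and at 164, 158 and 150 after CBE. These groups do not overlap, and the log2 change of 0.48 ± 0.16 had an adjusted p of 0.0641 by edgeR. It passed in 6 of 24 alternatives, including DESeq2 (adjusted p = 0.0337). MyTrMaSt libraries had 106, 112 and 133 CPM with PBS and 134, 124, 143, 187 and 135 with CBE, with overlap and a log2 change of 0.31 ± 0.14 (adjusted p = 0.202 by edgeR). Timp4, a TIMP expressed mainly in heart and brain, stood at 117, 97.8 and 90.7 CPM under PBS against 96.3, 111 and 107 under CBE in WT, values that interleave (log2 change 0.05, 95% interval -0.28 to 0.37). In MyTrMaSt it went from 88.0, 80.3 and 83.5 CPM to 95.1, 128, 96.5, 102 and 110 (log2 change 0.34 ± 0.14, adjusted p = 0.138 by edgeR). This change passed once replicate 1 of WT + PBS was left out of the shared fit (adjusted p = 0.0390 by edgeR).

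The host genes Syn1, Syn2 and Syn3, which encode synaptic vesicle proteins, did not pass with CBE in either genotype. Their log2 changes in WT were -0.29, -0.24 and -0.47, and in MyTrMaSt -0.01, -0.03 and -0.26, with no adjusted p under 0.28 by edgeR.

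Shares of the summed TIMP counts are given as a description, chosen after the values were seen. Timp1 made up 0.282% ± 0.171 (SD, n = 3) of the counts of the 4 TIMP genes in WT + PBS and 9.23% ± 1.72 (n = 3) in WT + CBE. In MyTrMaSt the share went from 0.251% ± 0.125 (n = 3) to 2.97% ± 1.02 (n = 5). Timp2 supplied most TIMP counts in every library, between 60.0% and 72.1%. The 4 genes together had 691 ± 104 CPM under PBS and 1040 ± 9.1 under CBE in WT, and 678 ± 16.4 and 826 ± 74.4 CPM in MyTrMaSt.

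**Figure D2:**
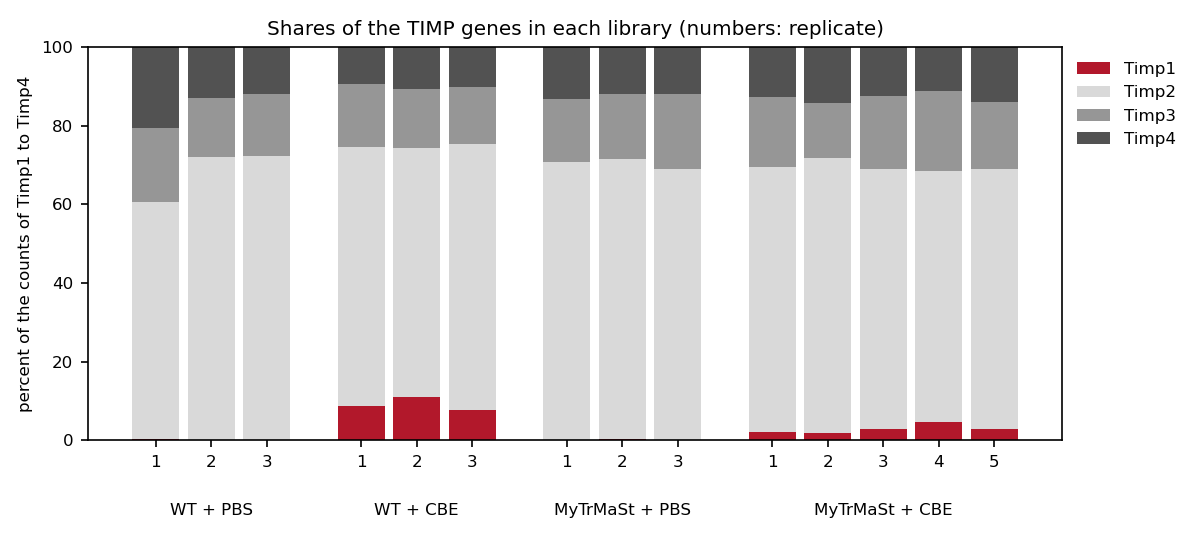
Stacked bars give the percent of all Timp1 to Timp4 counts that each gene supplied, 1 bar per library in the 4 groups; counts of 3′ ends are not divided by transcript length. The Timp1 segment is 7.86% to 11.2% in the WT + CBE libraries, 2.03% to 4.60% in MyTrMaSt + CBE and under 0.5% in every PBS library.

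Among the proteases, Adam8, a membrane ADAM with proteolytic activity that is not held in check by TIMPs, was at 1.80, 2.76 and 3.37 CPM in the PBS-injected WT mice, and CBE-injected WT mice showed 16, 16.9 and 19.9 CPM. MyTrMaSt libraries had 1.38, 2.91 and 3.17 CPM with PBS and 11.7, 14.3, 12.2, 18.2 and 10.6 with CBE. The CBE libraries lay above the PBS libraries in both genotypes, and the 2 CBE groups overlapped. Its rise was 6.13-fold in WT (log2 2.62 ± 0.33, adjusted p = 2.03e-05 by edgeR) and 5.21-fold in MyTrMaSt (2.38 ± 0.29, adjusted p = 4.02e-05 by edgeR). The PBS levels rest on 20 counts in WT and 24 in MyTrMaSt, pooled over libraries. The difference between the responses was -0.24 with a 95% interval of -1.25 to 0.78, and between the CBE groups it was -0.39 (95% interval -0.87 to 0.09, adjusted p = 0.808 by edgeR).

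Mmp14, the membrane-type MMP that activates pro-MMP2, had 42.0 and 38.8 CPM in replicates 2 and 3 of WT + PBS but 3.61 CPM, from 4 counts, in replicate 1. The WT + CBE libraries had 112, 116 and 103 CPM. In MyTrMaSt it had 41.8, 37.2 and 52.8 CPM with PBS and 88.1, 58.2, 70.5, 70.4 and 79.9 with CBE, so CBE libraries were higher without overlap in both genotypes, and MyTrMaSt + CBE lay below WT + CBE. The rise in WT was 3.57-fold (log2 1.84 ± 0.36, adjusted p = 0.00247 by edgeR). The MyTrMaSt groups differed 1.67-fold, which did not pass (0.74 ± 0.32, adjusted p = 0.167 by edgeR).

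Replicate 1 of WT + PBS also enters the shared estimate of spread. Without it the log2 rise of Mmp14 in WT was 1.46 and passed as before (adjusted p = 4.8e-06 by edgeR), the rise of 0.75 in MyTrMaSt passed (adjusted p = 0.000982), and the level after CBE was lower in MyTrMaSt by 0.60 on the log2 scale (adjusted p = 0.00852), a difference that had an adjusted p of 0.691 with the library included. The difference between the responses was -1.09 (95% interval -2.09 to -0.09, adjusted p = 0.368 by edgeR) with the library and -0.70 without it (adjusted p = 0.210), and did not pass in any alternative. In a fit of the WT libraries alone the rise of Mmp14 in WT did not pass (adjusted p = 0.106 by edgeR). Its rise passed in a fit of the MyTrMaSt libraries alone (0.75, adjusted p = 0.00528 by edgeR). The difference after CBE passed in a fit of the CBE groups alone (-0.59, adjusted p = 0.0138 by edgeR).

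Mmp2, gelatinase A, the protease activated by MMP14, had few counts. WT libraries had 9.93, 3.04 and 3.80 CPM under PBS and 6.40, 4.69 and 7.23 under CBE. MyTrMaSt libraries had 3.80, 5.02 and 1.06 CPM, then 4.68, 3.38, 6.08, 5.42 and 3.91, and all 4 groups overlapped. The log2 changes with CBE were 0.38 in WT (95% interval -0.60 to 1.36) and 0.45 in MyTrMaSt (-0.44 to 1.33). At 3 to 22 counts per library, a change of 2-fold was within these intervals.

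Adam17, the main sheddase of tumour necrosis factor, gave 19.9, 15.7 and 16 CPM in WT mice under PBS and 26.5, 34.3 and 28.9 under CBE. It rose 1.77-fold in WT (log2 0.82 ± 0.23, adjusted p = 0.0311 by edgeR). Leaving out replicate 2 or 3 of WT + PBS or replicate 2 or 3 of WT + CBE each lost this call (adjusted p = 0.0655 to 0.134), as did the fit of the WT libraries alone (adjusted p = 0.0900). MyTrMaSt libraries had 19.3, 21.9 and 15.1 CPM with PBS and 19.9, 21.0, 15.4, 29.0 and 21.1 with CBE, which overlap (log2 change 0.16, 95% interval -0.26 to 0.59). The responses differed by -0.66 (95% interval -1.31 to -0.01, adjusted p = 0.396 by edgeR).

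Adam10, the constitutive alpha-secretase of neurons, measured 15.3, 22.9 and 23.6 CPM under PBS and 23.3, 23.9 and 38.6 under CBE in WT mice. The MyTrMaSt values were 32.5, 29.6 and 48.6 CPM under PBS, then 26.9, 31.2, 33.6, 25.1 and 34.1 under CBE. It did not pass with CBE in WT (log2 change 0.40, 95% interval -0.15 to 0.94) or in MyTrMaSt (-0.28, -0.72 to 0.16). With PBS the MyTrMaSt libraries lay above those of WT (log2 difference 0.78 ± 0.25), with an unadjusted p of 0.00541 and an adjusted p of 0.156 by edgeR.

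Adamts1, a secreted protease of aggrecan and versican, gave 7.22, 12.4 and 12.2 CPM in WT mice under PBS and, without overlap, 18.6, 15.5 and 17.5 under CBE. Its log2 change of 0.62 ± 0.44 did not pass (adjusted p = 0.423 by edgeR). The value depended on the Xist covariate: it was 1.51 with it (adjusted p = 0.0680 by edgeR), and 1.36 with the covariate and no replicate 1 of WT + PBS, which passed (adjusted p = 0.0412). Within groups the covariate varied mainly through replicate 2 of WT + CBE, lowest of its group for Adamts1, and replicate 4 of MyTrMaSt + CBE, highest of its group. The values with the covariate lean on these libraries and cannot be read as a correction for Xist in WT. In MyTrMaSt, Adamts1 had 12.4, 14.3 and 18 CPM with PBS and 10.9, 7.89, 13.8, 35.4 and 9.00 with CBE. A single library, replicate 4, was high at 72 counts. With it the log2 change was 0.01, and without it -0.52 (SE 0.23, adjusted p = 0.213 by edgeR).

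**Figure D3:**
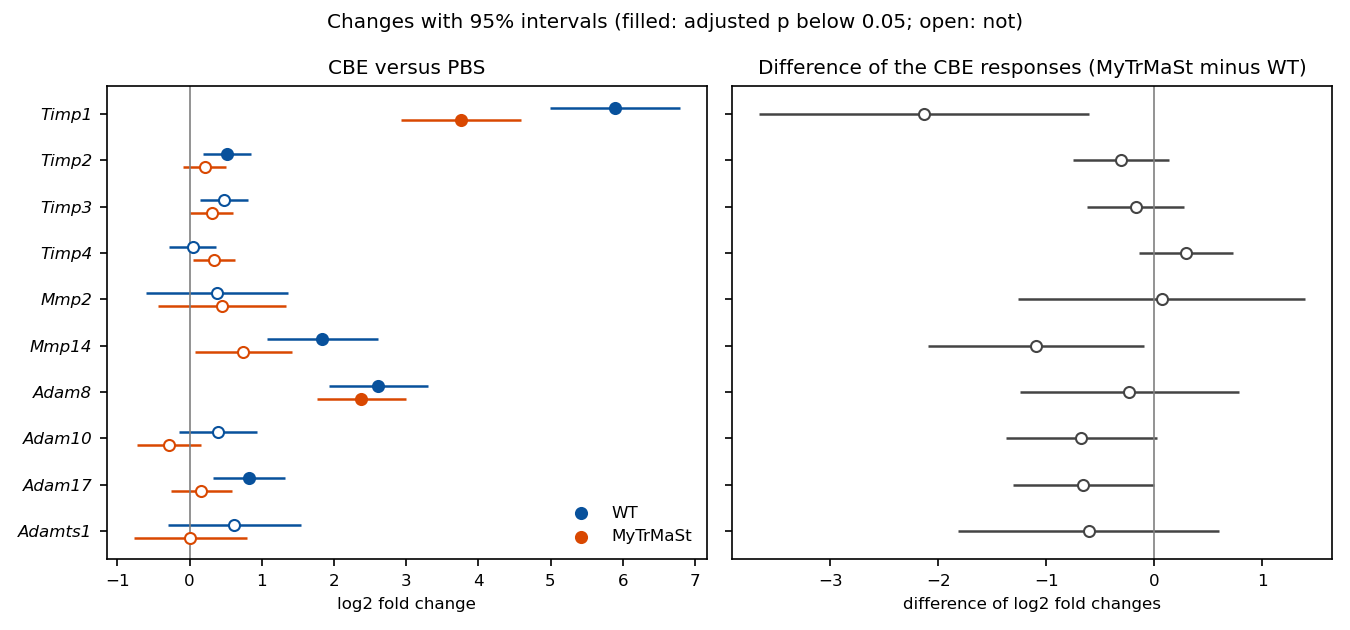
Left, log2 fold change of CBE against PBS for each member in WT and MyTrMaSt; right, the difference of the 2 responses (MyTrMaSt minus WT). Bars are 95% intervals of the edgeR fit over 14 libraries and filled points have an adjusted p below 0.05; 5 WT points and 2 MyTrMaSt points are filled, and none on the right.

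The same enzyme families held other genes that could be tested, from lists chosen with earlier results of these data known. Of 19 further MMP genes, 7 were listed and 5 tested. Mmp19, a soluble matrix protease, rose in both genotypes, from 0.83 to 0.90 CPM to 7.04 to 10.2 in WT (log2 3.21 ± 0.43, adjusted p = 4.51e-05 by edgeR) and from 1.41 to 2.76 CPM to 6.38 to 11.3 in MyTrMaSt (2.05 ± 0.31, adjusted p = 0.000306 by edgeR). Its PBS levels rest on 1 to 3 counts per library in WT and 4 to 8 in MyTrMaSt. Mmp15, a membrane-type relative of Mmp14, fell by 1.14 on the log2 scale in WT (adjusted p = 0.00818 by edgeR), from 28.5 to 54.1 CPM to 16 to 18.6. The GPI-anchored Mmp17, named here after its values were seen, fell by 0.78 (adjusted p = 0.0183 by edgeR). In MyTrMaSt the values of Mmp15 and Mmp17 were -0.59 and -0.32 and did not pass. Thus 1 of the 5 rose and 2 fell in WT, and 1 rose and none fell in MyTrMaSt, with median log2 changes of -0.40 and 0.09. The 54.1 CPM of Mmp15 was that of the library that stood apart. Without that library the fall of Mmp15 was 0.88 in WT and 0.59 in MyTrMaSt, and both passed (adjusted p = 0.0154 and 0.0253 by edgeR). With the Xist covariate neither Mmp15 nor Mmp17 passed in WT (adjusted p = 0.148 and 0.116 by edgeR).

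Among 8 further ADAM genes tested, some of which, such as Adam11, Adam22 and Adam23, encode proteins without protease activity, 1 fell in WT and 1 rose in MyTrMaSt. Adam19, a meltrin that cuts neuregulins, fell by 1.99 on the log2 scale in WT (adjusted p = 0.0242 by edgeR), with 5.25 to 15.3 CPM in PBS and 0 to 2.62 in CBE libraries. The 15.3 CPM was that of the library that stood apart, and the call was lost without it (-1.51, adjusted p = 0.0553 by edgeR) and with the Xist covariate (adjusted p = 0.214). Adam15, named after its values were seen, rose in MyTrMaSt (0.94 ± 0.18, adjusted p = 0.00383 by edgeR) and had 0.32 ± 0.20 in WT (adjusted p = 0.356). Without replicate 1 of WT + PBS, 4 of 12 tested ADAM genes, members included, rose and none fell in WT, where 8.58% of all tested genes rose and 4.05% fell. Of 7 further ADAMTS genes tested, none passed in either genotype, and the medians were -0.32 and -0.14.

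A2m, the plasma and astrocyte protease trap alpha-2-macroglobulin, was a further inhibitor that rose. Its level went from 9.02 to 14.6 CPM to 171 to 243 CPM in WT (log2 4.09 ± 0.27, adjusted p = 1.37e-08 by edgeR) and from 9.67 to 25 to 113 to 150 in MyTrMaSt (2.89 ± 0.24, adjusted p = 3.51e-07). The other listed inhibitor, the membrane-anchored Reck, had values of 0.17 and 0.40 that did not pass and is named after they were seen.

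**Figure D4:**
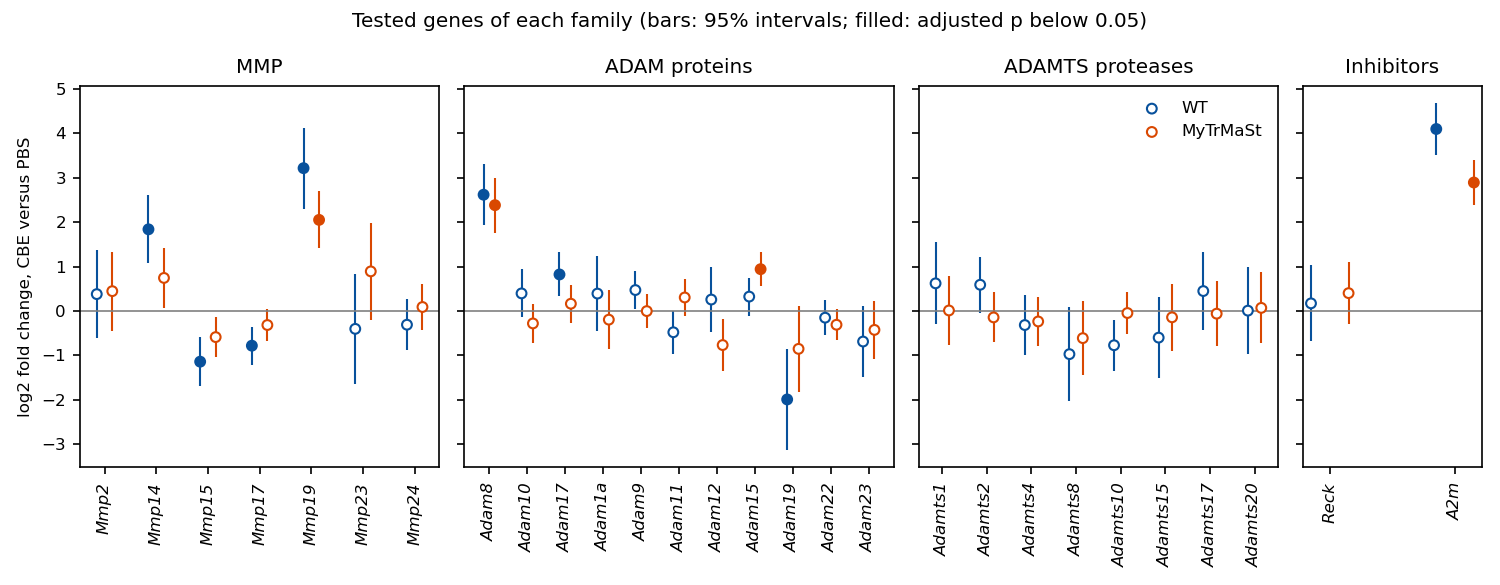
Log2 fold change of CBE against PBS for each tested gene of the MMP, ADAM and ADAMTS families and for Reck and A2m, in WT and MyTrMaSt, with 95% intervals; filled points have an adjusted p below 0.05. Mmp19 (3.21 and 2.05), A2m (4.09 and 2.89) and Adam8 (2.62 and 2.38) are filled in both genotypes, and no ADAMTS gene is filled.

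Of 7 tested genes for partners of ADAM10 and ADAM17, Rhbdf1, the inactive rhomboid iRhom1 that carries ADAM17 to the cell surface, rose in both genotypes (1.43 ± 0.23 and 0.90 ± 0.20, adjusted p = 0.00038 and 0.00952 by edgeR). Tspan17, a tetraspanin that escorts ADAM10, fell in both by 0.55 and 0.86 and is named after its values were seen. With the Xist covariate its fall in WT did not pass (adjusted p = 0.0932 by edgeR). The other 5 did not pass. None of 3 proprotein convertase genes, which encode the enzymes that remove the propeptides, passed. Without replicate 1 of WT + PBS, 1 of 4 then tested rose in MyTrMaSt: Furin, named after its values were seen, with 0.82 and an adjusted p of 0.00898 by edgeR, against 0.118 with that library.

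The plasminogen activator system generates plasmin and through it active MMPs, and of its 6 genes 4 were listed and 3 tested. Plaur, the urokinase receptor, rose from 2.71 to 3.80 CPM to 16.9 to 23.3 in WT (log2 2.70 ± 0.45, adjusted p = 0.000474 by edgeR) and from 1.04 to 1.58 to 6.23 to 26.1 in MyTrMaSt (3.23 ± 0.48, adjusted p = 0.000282). The PBS libraries had 3 to 11 counts of Plaur in WT and 3 to 6 in MyTrMaSt. Plat, tissue plasminogen activator, rose by 0.62 and 0.72, and the serpin Serpine2 rose in MyTrMaSt (0.50, adjusted p = 0.0120 by edgeR) with 0.28 in WT and both are named after their values were seen. In all, 2 of 3 tested genes rose in WT and 3 of 3 in MyTrMaSt.

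Substrates were tested as 2 lists. Of 13 matrix substrates, 1 rose in WT, Thbs1 (thrombospondin 1; 1.72 ± 0.47, adjusted p = 0.0243 by edgeR), 1 rose in MyTrMaSt, Ncan (neurocan; 0.70 ± 0.16, adjusted p = 0.0130), and none fell. Ncan, named after its values were seen, had -0.56 in WT, and its responses differed by 1.26 (adjusted p = 0.0238 by edgeR), which did not pass with the Xist covariate (adjusted p = 0.343). Its WT + PBS levels were 132 to 213 CPM, the highest in the library that stood apart. Thbs1 in WT did not pass with the Xist covariate either (adjusted p = 0.140 by edgeR), and its WT + PBS libraries had 3 to 5 counts each. Without replicate 1 of WT + PBS, 1 of 14 matrix substrates rose and 1 fell in WT, and 2 rose and 1 fell in MyTrMaSt. With DESeq2, 1 rose and 2 fell in WT. Of 20 membrane proteins known to be shed by ADAM10 or ADAM17, 10 rose and 1 fell in WT, and 8 rose and none fell in MyTrMaSt, with median log2 changes of 0.64 and 0.49. Without replicate 1 of WT + PBS the counts of 21 tested were 10 that rose and 2 that fell in WT and 11 and 2 in MyTrMaSt, with DESeq2 10 and 1 in WT and 9 and 1 in MyTrMaSt, and with the Xist covariate 10 and 7 rose and none fell. The share of all tested genes that was called also moved: without that library 10.7% rose and 7.87% fell in MyTrMaSt, and 8.58% and 4.05% in WT. With DESeq2 these shares were 6.54% and 3.51% in MyTrMaSt and 7.39% and 5.12% in WT, and with the Xist covariate 4.45% and 1.59% in MyTrMaSt and 4.61% and 1.06% in WT.

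In WT, the shed substrates with the largest changes were the chemokine Cxcl16 (3.63 in WT and 1.74 in MyTrMaSt), the hyaluronan receptor Cd44 (3.50 and 2.01) and the adhesion molecule Icam1 (3.34 and 1.70), which passed in both genotypes, and the cytokine Tnf, which passed in WT (adjusted p = 0.00243 by edgeR) and not in MyTrMaSt (adjusted p = 0.226). In WT, Tnf had 0 to 0.422 CPM under PBS and 4.82 to 6.57 under CBE, and 0 to 0.264 and 0 to 1.97 in MyTrMaSt, so its folds rest on few counts. Per PBS library, Cd44 had 0 to 5 counts in WT and 4 to 8 in MyTrMaSt, and Cxcl16 had 5 to 8 and 4 to 7. After CBE, 6 of the 20 were lower in MyTrMaSt than in WT, among them Cxcl16 by 2.59, Tnf by 2.83 and Icam1 by 2.49 on the log2 scale, and none was higher. Under PBS 1 of the 20 was already lower in MyTrMaSt, Trem2, a microglial receptor named after its values were seen (20.6 ± 1.71 CPM against 52.2 ± 19.0 in WT, log2 difference -1.29, adjusted p = 0.0114 by edgeR). It was among the 6 after CBE (-0.74, adjusted p = 0.0102 by edgeR), and its PBS difference did not pass with the Xist covariate (adjusted p = 0.214). The highest WT + PBS level of Trem2, 74.0 CPM, was that of the library that stood apart. In the interaction test 1 of the 20, Axl, passed (-1.23, adjusted p = 0.0218 by edgeR) and was named after its values were seen. It did not pass with the Xist covariate (adjusted p = 0.120 by edgeR). Cxcl16 passed that test without replicate 1 of WT + PBS (-2.40, adjusted p = 0.0101 by edgeR).

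Cell type markers moved with these genes, and in whole-brain RNA more cells of a type and more RNA per cell cannot be told apart. Microglia markers rose for 6 of 8 genes in both genotypes, and their summed level went from 415 to 556 CPM under PBS to 2004 to 2384 under CBE in WT, and from 367 to 393 to 1140 to 1345 CPM in MyTrMaSt. As for Timp1, the MyTrMaSt libraries given CBE lay between the PBS libraries and the WT libraries given CBE. After CBE, Aif1, C1qa and Cd68 were lower in MyTrMaSt (by 1.60, 1.09 and 0.72 on the log2 scale), and are named after their values were seen. Astrocyte markers rose for 3 of 6 genes in WT and 2 of 6 in MyTrMaSt, with sums that went from 2449 to 3153 CPM to 3770 to 4069 in WT, and from 3017 to 3429 to 4029 to 4346 in MyTrMaSt. Slc1a2, named after its values were seen, made the largest part of these sums. Its means were 1967 CPM with PBS and 1888 with CBE in WT, and 2178 and 2449 in MyTrMaSt. Gfap, the astrocyte filament protein, rose by 3.31 in each genotype (adjusted p = 5.6e-07 and 7.82e-07 by edgeR). Aqp4, the water channel of astrocyte endfeet, rose by 1.81 in WT (adjusted p = 0.000176 by edgeR) and had 0.78 in MyTrMaSt (adjusted p = 0.0561), which passed without replicate 1 of WT + PBS (adjusted p = 0.00216) and with DESeq2 (adjusted p = 0.0287). The lowest WT + PBS level of Aqp4, 35.2 CPM, was that of the library that stood apart.

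Oligodendrocyte markers fell for 4 of 5 genes in WT and for none in MyTrMaSt, with sums that went from 15010 to 17740 CPM to 9304 to 11990 in WT, and from 15230 to 17990 to 11280 to 15340 in MyTrMaSt. Neuron markers fell for 1 of 5 in each genotype. Without replicate 1 of WT + PBS the counts that fell were 5 and 1 of 5 oligodendrocyte markers and 3 and 2 of 5 neuron markers in WT and MyTrMaSt, 7 of 8 microglia markers rose in WT, and 4 of 6 astrocyte markers rose in each genotype. With DESeq2, 4 of 6 astrocyte markers rose in each genotype and 2 of 5 neuron markers fell in WT. None of the 6 endothelial, 4 pericyte, 5 fibroblast and meningeal or 5 choroid plexus markers tested rose in either genotype in the fit of all 14 libraries. Among them, 1 pericyte marker fell in both and 1 endothelial marker fell in MyTrMaSt. Without replicate 1 of WT + PBS, 1 fibroblast and meningeal marker rose and 2 endothelial markers fell in MyTrMaSt. With the Xist covariate, no pericyte marker fell in WT and 2 fell in MyTrMaSt. Of 3 oligodendrocyte precursor markers, 1 rose in MyTrMaSt, and without replicate 1 of WT + PBS 1 rose and 1 fell there. For blood cells 2 of 7 markers were listed and the 1 tested did not pass. The neuron, astrocyte and oligodendrocyte markers of the labelled tissue were present in every library, with summed levels of at least 2755, 2449 and 9304 CPM. The part of cell composition in the changes of the members was not tested.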

How the data were processed

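Bulk MARSseq libraries of 14 mouse brains (WT and MyTrMaSt null, PBS or CBE) were analysed. Per the study's methods and the submitters' processing notes, the authors trimmed reads (cutadapt), aligned them to mm10 with hisat, kept unique alignments and counted them per gene (HTSeq). The deposited values used are these raw counts per gene, summing to 1290616 to 3704691 per library. Use of strand or molecular identifiers is not given in the sources used here. Deposited normalized values and the authors' own comparisons (fold changes and p-values) were not used.

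Counts were fitted with edgeR 4.0.16 (R 4.3.3): TMM factors, filterByExpr (11852 of 13866 genes kept), 4 group means over 14 libraries, quasi-likelihood F tests, two-sided, and Benjamini-Hochberg adjustment over all tested genes, with an adjusted p below 0.05 called and a fold of 2 for named genes. Standard errors are the log2 fold change divided by the root of F. CPM were counts per 1000000 of the TMM-scaled library total. The steps were tested on simulated data with 200 changed genes. No source says that libraries of 1 group came from separate cages or litters, so p-values measure the spread between these libraries. All replicate pairs differed by more than sampling noise.

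The members and lists were chosen with earlier results of these data known. All 10 members are named. From each other list a rule gave at most 4 genes to name, those called at a fold of 2 or more with CBE in either genotype, taken by size. It named Syn1, Syn2 and Syn3 in any case. Genes outside this rule were chosen after their values were seen. Marker lists follow textbook use. Positions are from GENCODE and promoters from RefSeq. Alternatives covered normalization, count filters, DESeq2 1.42.0, limma 3.58.1, the samples fitted, a replicate block, the Xist level as a covariate and each library left out. For the other lists, leaving out replicate 1 of WT + PBS, the Xist covariate and DESeq2 were run, a choice made after seeing the data. Counting intervals cover counting error only.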

Additional observations from a re-analysis of the deposited data

Results flagged for a closer look

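In the group of 5 MyTrMaSt + CBE libraries, 1 library, replicate 4, lay apart from the rest for 2 of the 10 members by Dixon's test. For Timp1 it had 42.3 CPM where the other four had 16.4 to 23.9, a gap of 0.711 of the whole range, and for Adamts1 it had 35.4 CPM where the others had 7.89 to 13.8, a gap of 0.786. The same library had no Xist count and was highest of its group for Timp3 (187 CPM), Adam8 (18.2 CPM), Adam17 (29.0 CPM) and Plaur (26.1 CPM). Chance flags about 1 in 20 groups of this size, and the groups of 3 libraries were not tested. Without replicate 4, the rise of Timp1 in MyTrMaSt was 3.49 on the log2 scale (adjusted p = 3.03e-06 by edgeR), that of Adam8 2.26 (adjusted p = 7.43e-05), and the difference of Timp1 between the CBE groups -2.23 (adjusted p = 1.42e-06).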

How the results depend on the processing

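Across 24 alternatives, Timp1 and Adam8 stayed called in both genotypes, and Timp1 between the CBE groups, wherever they could be tested. The log2 changes of Timp1 ran from 5.54 to 6.75 in WT and from 3.43 to 4.28 in MyTrMaSt, and those of Adam8 from 2.52 to 2.83 and from 2.12 to 2.56. Of the values of single members under alternatives, 1087 kept their direction and side of the threshold, 20 lost a call, 17 gained one and 39 took the opposite sign. The number of members called in WT was 5 in the main fit of all 14 libraries. It was 3 with at least 10 counts in every library, 2 with only the compared groups fitted, and 3 to 6 with 1 library left out (3 without replicate 2 or 3 of WT + CBE). Over all tested genes, 1255 were called in the main fit, 690 with that filter and 493 with only the compared groups. Without replicate 2 or 3 of WT + CBE it was 755 and 858, and without replicate 4 of MyTrMaSt + CBE, which gave the 6, it was 1347. In MyTrMaSt it was 2. It became 0 with at least 10 counts in every library, a filter that removes Timp1 and Adam8 themselves. With only the compared groups fitted it was 3, where 1735 of all tested genes were called against 919. With the Xist covariate and no replicate 1 of WT + PBS it was 4, with 2021 genes called. It was 2 to 4 with 1 library left out, the 4 without replicate 1 of WT + PBS, where the genes called rose from 919 to 2246 of all tested. Between the CBE groups it was 1. It became 0 under the same filter, 2 with only the compared groups, 2 with the Xist covariate and no replicate 1 of WT + PBS, and 1 to 3 with 1 library left out, the 3 without that replicate, where all calls went from 301 to 425. The interaction had 0, and 1 (Timp1) with the Xist covariate and no replicate 1 of WT + PBS, an alternative chosen after seeing the data. The cause of these shifts was not tested, other than the filter's own removal of genes.

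The following values took the opposite sign or span both. For CBE in WT, Timp4 ran from -0.024 to 0.16 with 1 library left out, and Adam10 was -0.028 with the Xist covariate and no replicate 1 of WT + PBS. For CBE in MyTrMaSt, Adamts1 was -0.020 with library totals, -0.21 with limma voom, -0.35 with the Xist covariate, -0.33 with that covariate and no replicate 1 of WT + PBS, and -0.52 to 0.18 with 1 library left out. Between the CBE groups, leaving out 1 library gave -0.051 to 0.063 for Timp4 and -0.043 to 0.35 for Adam10. Between the PBS groups it gave -0.36 to 0.39 for Timp1, -0.19 to 0.10 for Timp2, -0.053 to 0.11 for Timp3, -0.93 to 0.017 for Mmp2 and -0.33 to 0.11 for Adam8. There Timp2 was 0.049 with library totals, 0.045 with at least 10 counts in every library, 0.013 with limma voom and 0.021 with the Xist covariate, which put Adam8 at 0.11. The interaction of Mmp2 was -0.0083 with library totals, -0.30 with the Xist covariate and no replicate 1 of WT + PBS, and -0.41 to 0.55 with 1 library left out.

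Replicate numbers are shared between groups, but libraries of the same number did not deviate together (correlations of -0.125 to 0.0231). This does not show whether such libraries shared a litter or a processing batch. With the replicate block, 1008 genes were called in WT against 1255 without it, and 377 against 919 in MyTrMaSt. Under the replicate block Adam17 (-0.0032) and Adamts1 (-0.46) in MyTrMaSt and Timp2 between the PBS groups (0.017) turned sign, and Timp2 in WT lost its call (adjusted p = 0.0647 by edgeR). Depth limits Timp1, Adam8 and Mmp2 in PBS libraries, which had 2 to 19 counts each.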
